A study of Homo sapiens with 6 samples.

Results

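Box H/ACA small nucleolar RNAs (SNORA genes) and the small RNAs of Cajal bodies (SCARNA genes) were followed in human endothelial-labelled cells with and without bacterial lipopolysaccharide (LPS). A gene was included when its symbol was SNORA or SCARNA followed by a number and its mean over all 6 libraries was at least 0.5 FPKM, fragments scaled by transcript length and by library size. This left 54 genes, 43 SNORA and 11 SCARNA, of the 175 rows with such symbols among the 61556 genes of the table. The genes were thus chosen by their mean FPKM over control and LPS libraries together, and that level is given below as a description only. Of the 121 rows under the level, 100 were above 0 in some library and 21 were listed at 0 in all of them. The libraries were 3 control and 3 LPS samples of total RNA, all at 12 h, and the LPS cells had received 1000 ng/ml. All were labelled EA.hy926, a line made by fusing umbilical vein endothelial cells with a lung carcinoma line, and also as HUVECs, primary cells of the umbilical vein. Titles gave the groups, because the treatment field named sepsis for all 6, while the genotype field read WT for the controls and LPS-induced for the others. The labels do not say that the replicates were separate cultures, and the p-values then measure only the spread between these samples, which may be technical.

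H/ACA RNAs fold into a pair of hairpins, joined by a hinge that holds box H and followed by a tail that holds box ACA. In a complex with dyskerin, NHP2, NOP10 and GAR1 they pair with a target RNA and place a uridine for conversion to pseudouridine. SNORA RNAs mostly guide this on ribosomal RNA in the nucleolus, and a few, such as the U17 RNAs of the SNORA73 genes, act in cutting the ribosomal precursor. SCARNA RNAs work on spliceosomal RNAs in Cajal bodies. Some of them are of the H/ACA kind, some of the box C/D kind, which guides ribose methylation, and some join both. Most human members are cut from introns of host genes after splicing, while SCARNA2 is transcribed from its own promoter.

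The sequences below are those of the genes on which the values turn, read from GENCODE 29 transcripts on build GRCh38, 5′ to 3′, with U written as T. Start and end of all 54 genes in the deposited table equalled those of GENCODE 29. The first set comes from 1 host gene, TAF1D, a subunit of a factor for RNA polymerase I, and is shown because its members had unequal levels. SNORA8 is at chr11:93732361-93732499 and SNORA25 at chr11:93730513-93730646, both on the minus strand. Capitals mark the hinge motif ANANNA where it occurred in the middle of the RNA, from 35% to 65% of its length, and ACA where it began in the last 8 bases.
SNORA8: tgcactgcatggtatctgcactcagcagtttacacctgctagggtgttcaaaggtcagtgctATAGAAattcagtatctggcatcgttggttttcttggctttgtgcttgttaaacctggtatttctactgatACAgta
SNORA25: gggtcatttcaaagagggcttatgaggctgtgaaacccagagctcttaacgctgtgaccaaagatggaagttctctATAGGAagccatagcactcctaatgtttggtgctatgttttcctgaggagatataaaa
SNORA25 ends without an ACA in that window, so only its hinge motif is capitalised.

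The second set holds the SNORA genes that stood out when the groups were compared. SNORA64 is at chr16:1962973-1963106 on the minus strand, inside the ribosomal protein gene RPS2 and over exons of 4 of its annotated transcripts. SNORA65 is at chr9:127448501-127448630 on the minus strand, in an intron of RPL12. SNORA70 is at chrX:154400281-154400415 on the plus strand, inside RPL10 and over exons of 4 of its transcripts. SNORA78 is at chr16:1965184-1965310 on the plus strand, over an exon of 1 SNHG9 transcript. SNORA59A is at chr1:12507246-12507397 on the plus strand, in an intron of VPS13D. Capitals mark the same 2 motifs.
SNORA64: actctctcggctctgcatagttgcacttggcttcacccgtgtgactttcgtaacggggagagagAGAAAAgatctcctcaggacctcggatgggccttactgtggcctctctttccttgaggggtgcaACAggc
SNORA65: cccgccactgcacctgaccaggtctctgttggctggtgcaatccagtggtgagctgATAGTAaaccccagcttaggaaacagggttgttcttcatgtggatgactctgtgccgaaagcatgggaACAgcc
SNORA70: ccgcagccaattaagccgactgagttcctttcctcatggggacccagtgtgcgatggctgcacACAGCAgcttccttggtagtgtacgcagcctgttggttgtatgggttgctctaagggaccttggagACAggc
SNORA78: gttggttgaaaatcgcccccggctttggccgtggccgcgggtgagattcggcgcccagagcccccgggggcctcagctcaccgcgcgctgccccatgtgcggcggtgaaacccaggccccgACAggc
SNORA59A: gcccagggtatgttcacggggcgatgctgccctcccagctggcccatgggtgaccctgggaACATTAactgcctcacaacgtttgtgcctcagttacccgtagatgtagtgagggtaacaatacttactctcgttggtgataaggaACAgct
In SNORA78 no ANANNA was found in the middle window and only ACA is capitalised.

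The third set shows the kinds of SCARNA. SCARNA4, at chr1:155925958-155926085 on the minus strand, and SCARNA21, at chr17:7906122-7906260 on the plus strand, hold the H/ACA motifs. SCARNA4 also has TGAG capitalised, the letters searched for the CAB box that directs RNAs to Cajal bodies. SCARNA12, at chr12:6967337-6967606 on the minus strand, has capitals at TGATGA and CTGA, the letters searched for boxes C and D. It is of the kind that joins both box types. The letters of both H/ACA motifs also matched in it and are not capitalised. These matches are AGATCA from base 133 and an ACA at the very end. That ACA shares a base with CTGA and is a match of letters only.
SCARNA4: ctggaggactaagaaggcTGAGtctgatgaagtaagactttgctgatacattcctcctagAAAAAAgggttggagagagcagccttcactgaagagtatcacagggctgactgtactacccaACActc
SCARNA21: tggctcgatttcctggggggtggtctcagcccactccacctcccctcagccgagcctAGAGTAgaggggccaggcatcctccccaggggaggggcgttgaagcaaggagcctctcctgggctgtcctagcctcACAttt
SCARNA12: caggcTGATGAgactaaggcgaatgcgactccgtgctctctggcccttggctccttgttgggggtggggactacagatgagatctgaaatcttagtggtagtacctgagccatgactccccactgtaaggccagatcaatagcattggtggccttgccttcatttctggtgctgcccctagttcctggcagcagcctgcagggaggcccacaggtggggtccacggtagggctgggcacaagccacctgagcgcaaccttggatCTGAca
SCARNA12 is also the gene whose level differed most between libraries of the same group among the abundant ones.

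Motifs were searched on the transcribed strand only, and a match is a description, not a functional site. ANANNA in the middle together with ACA at the end was found in 37 of 43 SNORA genes (86.0%) and 3 of 11 SCARNA genes. Among these 3 was SCARNA12, whose ACA overlaps CTGA. The H/ACA pair was found in 0 of 68 box C/D genes (SNORD) that passed the same level. Of 439 other small RNA transcripts of 120 to 160 bases, 16 held it (3.64%). An ACA followed by exactly 3 bases ended 33 SNORA genes and 3 SCARNA genes, SCARNA4, SCARNA13 and SCARNA21, against 2 SNORD genes and 4 of the other transcripts. TGATGA in the first 25 bases with CTGA in the last 12 was found in 5 SCARNA genes, SCARNA5, SCARNA6, SCARNA7, SCARNA10 and SCARNA12. The same pair was found in 0 of 43 SNORA genes, 36 of 68 SNORD genes and 0 of the 439 other transcripts. TGAG was in 10 of 11 SCARNA genes and 19 of 43 SNORA genes, but also in 58 of 68 SNORD genes and 263 of 439 other transcripts (59.9%). The H/ACA pair was thus in most SNORA genes, some SCARNA genes and few or none of the other 2 sets, while TGAG was common in all of them.

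Levels ran over a 493-fold range, from SCARNA2 with a mean of 249.6 FPKM to SNORA51 with 0.506. There were 10 genes with a mean over 10 FPKM, and 29 lay between 1 and 10, and 15 were under 1, with a median of 1.96. The 6 most abundant were all SCARNA genes. The 9 RNAs longer than 200 bases had a median of 26.9 FPKM and the 45 shorter ones 1.58. Spearman's rho between length and mean level was 0.43 over all 54 genes and 0.11 over the 43 SNORA genes, which share libraries and counting. The lowest members were SNORA74A at 0.560, SNORA2B at 0.522 and SNORA51 at 0.506 FPKM, and just outside were SNORA23 at 0.468, SNORA71D at 0.445 and SNORA2C at 0.436. The H/ACA RNA of telomerase, TERC, was also under the level, at 0.254 ± 0.0555 FPKM in control and 0.292 ± 0.0594 in LPS libraries (SD, n = 3 each). RMRP, another nuclear small RNA, stood at 4632 ± 461 and 4419 ± 328 FPKM (SD, n = 3 each), and the group means of RPPH1, RN7SK and RN7SL1 lay between 32162 and 52027 FPKM.

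**Figure D1:**
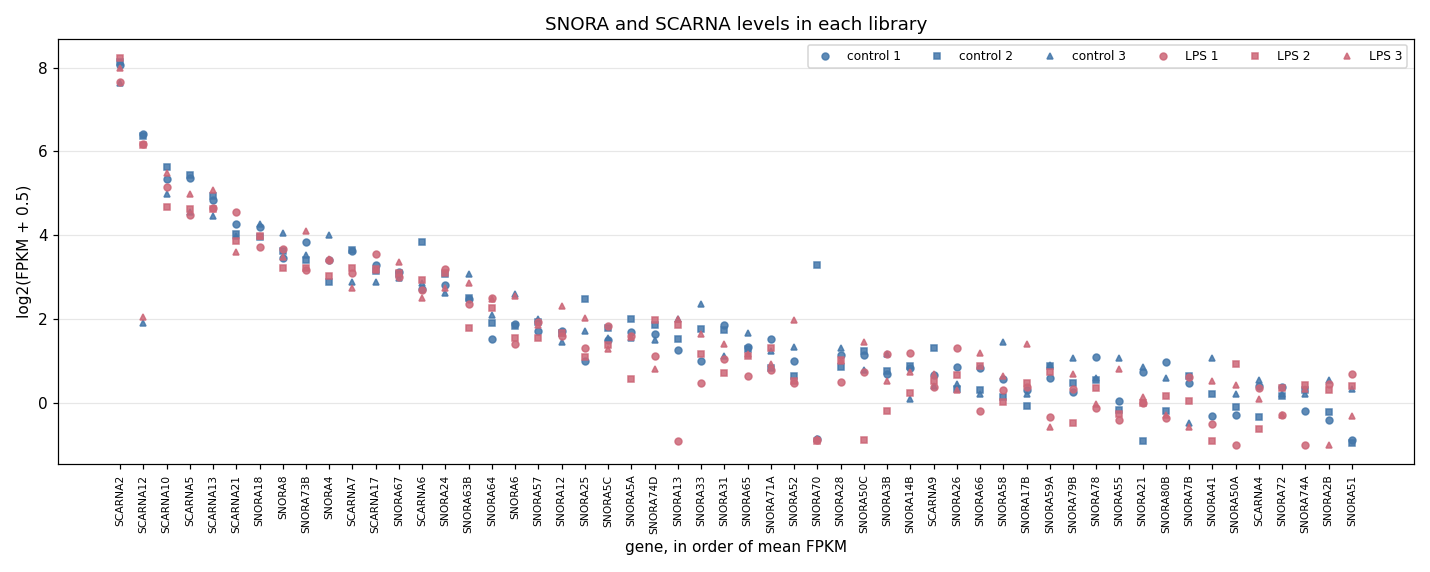
Each column is 1 of the 54 genes in order of mean FPKM, and each point is 1 library on the scale log2(FPKM + 0.5), blue for control and red for LPS, with a shape for each replicate number. SCARNA2 stands highest with a mean of 249.6 FPKM, SCARNA12 is low in control 3 and LPS 3, and SNORA70 is high in control 2 alone.

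Among the Cajal body RNAs, SCARNA2, which guides methylation of U2 spliceosomal RNA, was highest in every library. Its values were 268, 280 and 196 FPKM in control and 202, 298 and 252 in LPS libraries, so the groups overlapped. Its lowest library lay above the highest library of every other member. SCARNA12, a guide for U5 RNA, was at 84.4, 81.5 and 3.22 FPKM in control and 71.6, 70.2 and 3.61 in LPS libraries. One library of each group, numbered 3 in both, was thus far below the other 2, and the LPS and control values overlapped. In those same 2 libraries 1 annotated transcript of its host PHB2 was listed at 2.02 FPKM (control 3) and 23.5 FPKM (LPS 3), and at 0 in the other 4. This transcript has no exon over SCARNA12, and its part in the low values was not tested. The host gene itself, which encodes prohibitin 2, stood at 63.4 FPKM in control and 66.3 in LPS libraries on average.

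SCARNA10, which joins both box types and guides U5 RNA, was at 40.0, 49.3 and 31.3 FPKM in control and 35.0, 24.8 and 44.0 in LPS libraries. SCARNA5 was at 40.3, 42.7 and 23.0 FPKM in control and 21.8, 24.2 and 31.0 in LPS libraries. SCARNA13 was at 28.2, 29.9 and 21.5 FPKM in control and 24.4, 24.2 and 33.4 in LPS libraries. In these 3 genes control 3 was the lowest control library and LPS 3 the highest LPS library, and the groups overlapped. SCARNA21 was at 18.9, 15.8 and 15.2 FPKM in control and 23.1, 14.0 and 11.7 in LPS libraries. SCARNA7, a guide for U1 RNA, was at 11.8, 12.0 and 6.91 FPKM in control and 8.05, 8.83 and 6.16 in LPS libraries. SCARNA17 was at 9.30, 8.29 and 6.91 FPKM in control and 11.1, 8.66 and 8.498 in LPS libraries. Each of these groups overlapped as well, with LPS 1 the highest library of SCARNA21 and SCARNA17.

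SCARNA6 was at 6.08, 13.7 and 6.71 FPKM in control and 5.98, 7.12 and 5.16 in LPS libraries, with control 2 apart from the rest. It shares the host ATG16L1, an autophagy gene, with SCARNA5, and the means of the 2 were 7.45 and 30.5 FPKM. SCARNA9 was at 1.08, 1.99 and 0.811 FPKM in control and 0.793, 0.927 and 1.10 in LPS libraries. SCARNA4 was the lowest of the class, at 0.812, 0.290 and 0.952 FPKM in control and 0.781, 0.149 and 0.562 in LPS libraries. In none of the 11 SCARNA genes did the 3 control and 3 LPS values separate, and 8 of the 11 had a negative log2 change. Over all genes tested, 7.76% separated with LPS lower, 8.13% separated with LPS higher, and 51.1% had a negative log2 change. With 11 genes, the lack of separation gives no result about the class.

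The comparison of LPS with control asked which genes change when these endothelial-labelled cells meet LPS. It used limma on log2(FPKM + 0.5) over 15944 genes, all of which entered the Benjamini-Hochberg adjustment. None of the 54 genes passed an adjusted p of 0.05, and across all genes tested 8 did, 6 higher and 2 lower with LPS (0.0502%). The lowest adjusted p among the 54 was 0.42. At an unadjusted p under 0.05 there were 3 of the 54 (SNORA64, SNORA78 and SNORA59A), against 9.21% of all genes tested. LPS values lay wholly below control values in 3 genes, SNORA65, SNORA70 and SNORA78, against 7.76% of all genes, and wholly above in 2, SNORA64 and SNORA17B, against 8.13%. With all 6 libraries each of these counts is a smaller share of the 54 than the background share, so they give no result about these genes. The unadjusted count depended on single libraries: it was 8 of 54 (14.8%) without LPS 3, against 8.89% of all genes in that fit, and 6 of 54 (11.1%) without control 3, against 6.70%. Without control 2 or LPS 2 it was 5 of 54 (9.26%), against 7.76% and 9.04%. Adding 0.5 before taking logs makes the change of a low gene look smaller than it is.

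SNORA64, a guide for large-subunit ribosomal RNA, was at 2.36, 3.24 and 3.74 FPKM in control and 5.14, 4.26 and 5.08 in LPS libraries. All LPS libraries were above all control libraries. Its log2 change was 0.57 with a standard error of 0.18 (95% interval 0.16 to 0.99, limma, adjusted p = 0.42). Its host RPS2, a protein of the small ribosomal subunit, was at 1354 FPKM in control and 1323 in LPS libraries, with a log2 change of -0.026. Annotated RPS2 exons overlap SNORA64, wholly or in part, so reads of the 2 genes may have been split between them.

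SNORA65, another guide for large-subunit ribosomal RNA, was at 2.02, 1.95 and 2.65 FPKM in control and 1.06, 1.66 and 1.72 in LPS libraries. All LPS values were lower than the lowest control value. Its log2 change was -0.46 with a standard error of 0.20 (limma, adjusted p = 0.54), and the change was -0.30 without LPS 1. Its host RPL12 was at 396.2 and 342.2 FPKM, a log2 change of -0.22 (limma, adjusted p = 0.59). SNORA70, a guide for small-subunit ribosomal RNA, was at 0.049, 9.26 and 0.048 FPKM in control and 0.043, 0.028 and 0.046 in LPS libraries. It was above 0.1 FPKM in control 2 only, and the groups were kept apart only by 0.048 against 0.046 FPKM. Its log2 change was -1.41 with a standard error of 1.03 (limma, adjusted p = 0.73), and -0.025 without control 2. An RPL10 transcript with an exon over it was listed at 65.7 to 87.0 FPKM in all 6 libraries.

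SNORA78, SNORA59A and SNORA17B were chosen after their values were seen. SNORA78 was at 1.61, 0.949 and 1.01 FPKM in control and 0.413, 0.780 and 0.477 in LPS libraries, without overlap. Its log2 change was -0.67 with a standard error of 0.22 (limma, adjusted p = 0.44). SNORA59A was at 1.001, 1.33 and 1.37 FPKM in control and 0.294, 1.16 and 0.172 in LPS libraries, and LPS 2 lay within the control range. Its log2 change was -0.84 with a standard error of 0.34 (limma, adjusted p = 0.52), and the change was -1.37 with a pseudocount of 0.1. SNORA17B was at 0.726, 0.446 and 0.659 FPKM in control and 0.788, 0.880 and 2.14 in LPS libraries. LPS 3 stood apart from the other 5 there, and the log2 change was 0.60 with a standard error of 0.30 (limma, adjusted p = 0.59), or 0.27 without LPS 3.

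**Figure D2:**
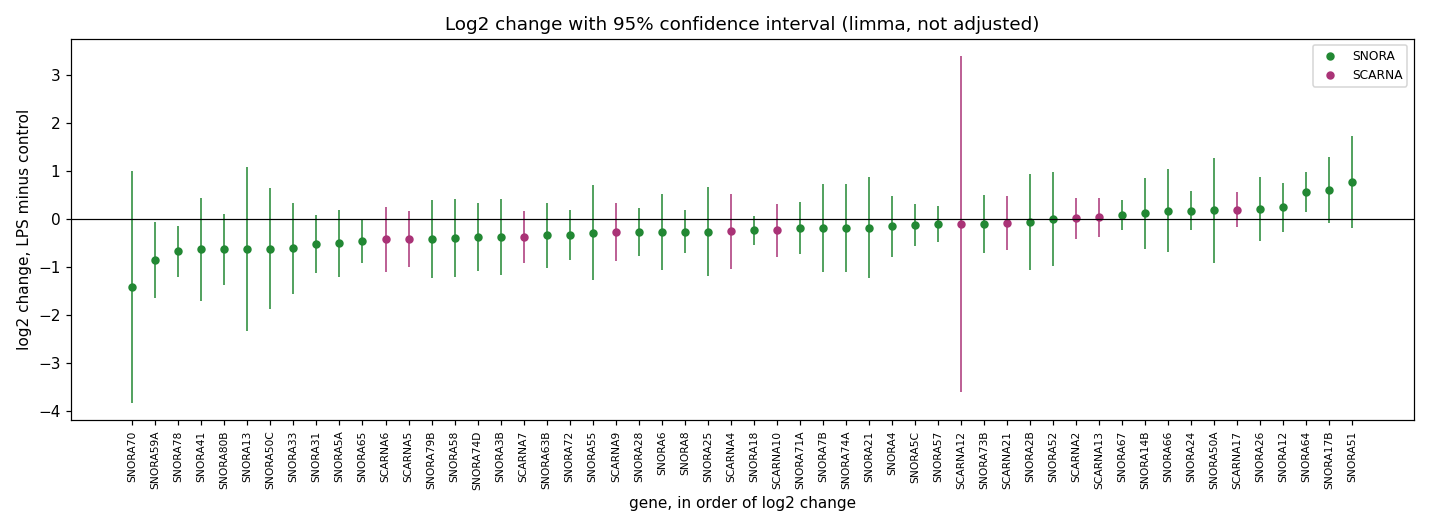
Log2 change, LPS minus control, of each of the 54 genes in order of size, with its 95% confidence interval from limma before adjustment, green for SNORA and purple for SCARNA. Of the 54 points 41 lie below 0, and the widest intervals belong to SCARNA12 and SNORA70.

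By direction, 41 of the 54 genes had a negative log2 change (75.9%) and 13 a positive one, with a median of -0.25. Of these, 7 reached 0.5 FPKM in 1 group mean only: 5 were under it with LPS, all negative, and 2 under it in control, both positive. Their signs thus follow from the level rule, and the other 47 divided into 36 negative and 11 positive. Over all genes tested 51.1% were negative and the median was -0.0053. SNORA genes had a median of -0.26 with 33 of 43 negative, and SCARNA genes -0.23 with 8 of 11. The 68 box C/D genes had a median of -0.077 with 57.4% negative, and 1 of them was called, upward. None of the 4 box C/D core proteins was called, and 0 of them had an unadjusted p under 0.05. The 271 other genes of at most 300 bases had a median of -0.0082 with 50.6% negative. No test of these medians was made, since the genes were proposed with results of these libraries known. The median of the 54 was -0.15 without control 3 and -0.13 without LPS 2, so single libraries moved it by more than 1.5 times. Genes of at least 1 FPKM had a median of -0.23 (39 genes) and those below it -0.26 (15 genes).

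By library, the median SNORA difference from the control mean was -0.055, -0.10 and 0.13 in control and -0.41, -0.31 and -0.050 in LPS libraries. LPS 3 thus fell inside the control range, and LPS 1 and LPS 2 below it. For SCARNA genes the medians were 0.18, 0.26 and -0.32 in control and -0.17, -0.20 and -0.11 in LPS libraries, and control 3 was the lowest of all. Box C/D genes gave -0.12, -0.091 and 0.22 in control and -0.22, -0.32 and 0.27 in LPS libraries. Control 3 and LPS 3 were the highest of their groups for SNORA, box C/D and other short genes alike. They were also the highest over all genes tested, by less, at 0.035 in control 3 and 0.048 in LPS 3. The libraries with fewer genes of the class in sight were also LPS 1 and LPS 2: at least 1 FPKM was reached by 41, 38 and 41 of the 54 genes in control and by 33, 33 and 39 in LPS libraries. Rows of the 175 listed above 0 numbered 129, 133 and 133 in control and 117, 118 and 128 in LPS libraries, beside 27126, 27313 and 27944 genes of all kinds in control and 26436, 26658 and 27276 in LPS libraries. The part of this library-wide detection in the lower medians was not tested.

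**Figure D3:**
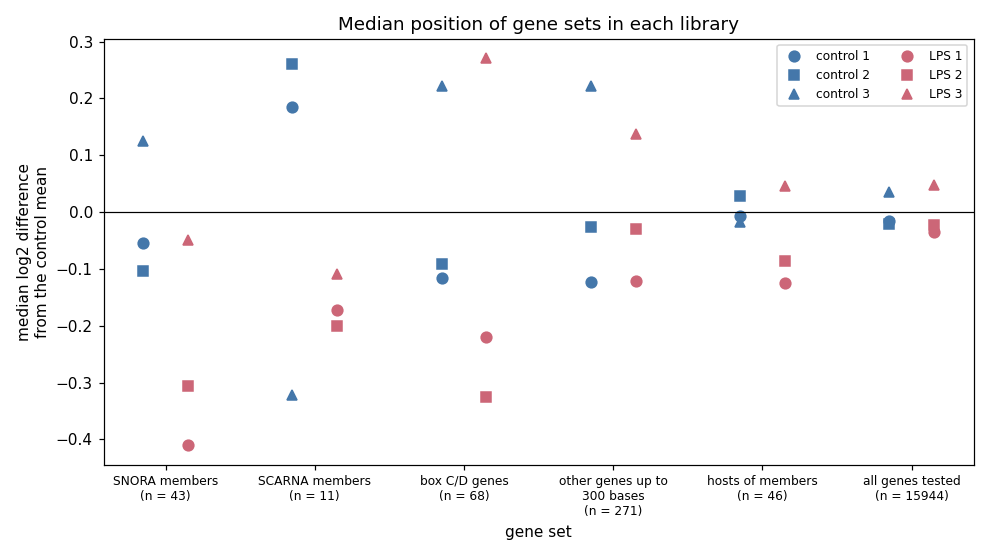
Median, over each gene set, of the log2(FPKM + 0.5) difference from the control mean, 1 point per library, blue for control and red for LPS, with a shape for each replicate number. SNORA genes lie at -0.41 and -0.31 in LPS 1 and LPS 2 but at -0.050 in LPS 3, inside the control range.

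Summed over the 54 genes, the libraries held 633, 665 and 460 FPKM in control and 512, 587 and 534 in LPS, which was 0.107% to 0.139% of all summed FPKM. SNORA genes alone summed to 124, 129 and 147 FPKM in control and 108, 105 and 137 in LPS libraries. Both sums overlapped between groups. In bulk samples fewer cells of a type and less RNA per cell cannot be told apart.

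The spread between replicates was wide for these genes. The median standard deviation within groups was 0.45 on the log2 scale for the 54 genes, 0.58 for box C/D genes and 0.53 for other short genes. It was 0.22 for 7809 longer genes of similar level and 0.21 for all genes tested. Standard errors of the log2 change ran from 0.13 to 1.49 with a median of 0.29. In 25 of the 54 genes the 95% interval lay within 1 log2 unit of 0 on both sides, and in the other 29 it reached past 1 log2 unit on some side. Between libraries, 10 genes differed more than 10-fold from highest to lowest, and 15 differed by 2-fold or less. A library under 0.1 FPKM occurred in 9 genes, for example SNORA13 in LPS 1 at 0.029 against 1.88 to 3.52 in the other 5, and SNORA50C in LPS 2 at 0.041 against 1.16 to 2.24 in the other 5. The lowest member, SNORA51, was at 0.043, 0.0090 and 0.747 FPKM in control and 1.12, 0.824 and 0.299 in LPS libraries. The tables hold FPKM only, so depth is unknown and no count interval can be given.

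Of the 54 genes, 53 lay on the same strand inside a longer gene, the host, and SCARNA2 had none. There were 47 different hosts, 35 of them protein-coding. Ribosomal protein genes, 10 in all, held 10 members, and 10 more lay in 9 SNHG genes, long noncoding genes known as hosts of small nucleolar RNAs. More than 1 member lay in 5 hosts, 11 members in all. Exons of an annotated host transcript overlapped 21 members, wholly or in part, and 32 were in introns only. The median log2 change was -0.18 in the first and -0.27 in the second. A gene on the opposite strand overlapped 19 members, and whether counting used strand is not known here, which leaves these levels uncertain. The same holds for the 17 members whose symbols end in a letter, which marks a family of related copies.

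Host and member levels were not ordered alike. Spearman's rho between them was 0.011 over 53 members, and that between their log2 changes 0.019 over 52, with 29 of the same sign. Levels are compared here per length. The member was below its host in 44 cases and above it in 9, of which 5 were among the 10 SCARNA genes with a host. SCARNA13 exceeded its host SNHG10 19.0-fold and SCARNA10 exceeded NCAPD2, a condensin subunit, 3.72-fold. In ribosomal protein genes, 8 of the 10 members stood under 1% of the host. The TAF1D members had means of 15.8 FPKM for SNORA18, 11.7 for SNORA8 and 2.76 for SNORA25, a 5.73-fold range within 1 host of 19.3 FPKM in control and 16.5 in LPS libraries. SNORA18 was at 17.7, 14.9 and 18.9 FPKM in control and 12.7, 15.4 and 15.4 in LPS libraries, and SNORA25 at 1.501, 5.10 and 2.78 against 1.98, 1.63 and 3.58. No tested host was called (limma, adjusted p of 0.05; 3 of 46 had an unadjusted p under 0.05, against 9.21% of all genes), and the 46 tested had a median log2 change of -0.036 with 29 negative.

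**Figure D4:**
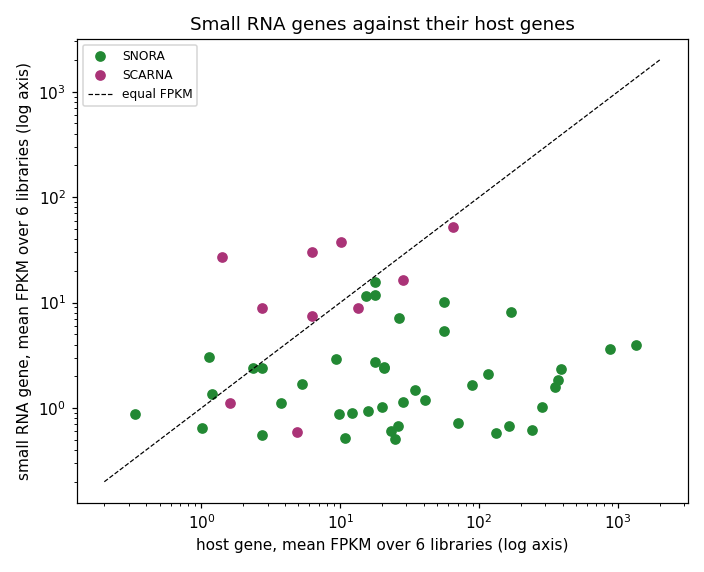
Mean FPKM over 6 libraries of the host gene (horizontal) and of the small RNA gene inside it (vertical), both on log axes, green for 43 SNORA and purple for 10 SCARNA genes, with a dashed line at equal FPKM. 44 of the 53 points lie below the line and show no common order with the host level (Spearman's rho 0.011).

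The proteins that make and use these RNAs were listed by role under 29 symbols. TERT was under the level and no gene carried the symbol PAPD5, which left 27 to test. None was called (limma, adjusted p of 0.05), 1 had an unadjusted p under 0.05 against 9.21% of all genes, and 18 of 27 had a negative log2 change, with a median of -0.064. Among the core proteins, DKC1 (dyskerin, the pseudouridine synthase) was at 8.76 ± 0.524 FPKM in control and 7.90 ± 2.14 in LPS libraries (SD, n = 3 each). NHP2 was at 11.2 ± 5.93 and 8.35 ± 3.58, NOP10 at 53.5 ± 3.62 and 53.0 ± 5.09, and GAR1 at 3.57 ± 0.405 and 3.21 ± 0.476 FPKM. All 4 had lower means with LPS, by less than the larger of the SDs of control and LPS libraries. For DKC1 the difference was larger than the control SD. The assembly factor NAF1 was at 3.86 ± 0.316 and 3.57 ± 0.201 FPKM, and SHQ1, a chaperone of dyskerin, at 5.61 ± 0.900 and 5.44 ± 0.587. WRAP53, which binds the CAB box, was at 4.43 ± 1.77 and 4.62 ± 1.11 FPKM, and COIL, the coilin of Cajal bodies, at 3.17 ± 0.326 and 3.20 ± 0.791. The gene past the unadjusted threshold was USPL1, a Cajal body protein named here after its values were seen, at 4.25 ± 0.306 and 3.20 ± 0.334 FPKM (limma, adjusted p = 0.49). TERT, the telomerase protein, was listed at 0 in all 6 libraries. Of 12 pseudouridine synthases that need no guide RNA, none was called and 2 had an unadjusted p under 0.05, against the 9.21% of all genes tested.

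Of the whole series, summed FPKM lay between 427920 and 483345 per library. All 10 endothelial markers reached 0.5 FPKM, summing to 306.5 to 401.7 FPKM in control and 368.8 to 453.3 in LPS libraries. Of 7 epithelial markers 4 did, with EPCAM, CDH1 and CLDN4 at or near 0 and sums of 125.1 to 137.7 and 91.2 to 114.2. All 6 fibroblast and smooth muscle markers did, at 3449 to 3877 and 3407 to 3842 FPKM, mostly collagen genes. The others, ACTA2, PDGFRB and DCN, were at 137, 75.4 and 52.9 FPKM in control and 115, 84.0 and 40.5 in LPS libraries. The sums of this list lay above those of the endothelial list in every library. What the cells are beyond their label was not tested. Of 6 leukocyte markers 2 did, with PTPRC and CD3E at 0. Of 10 LPS response genes 2 were called, ISG15 and MX1, both higher with LPS, against 0.0502% of all genes. Of the 10, 8 had a positive log2 change and 2 a negative one. The negative ones were VCAM1, at 37.8 FPKM in control and 24.7 in LPS libraries, and IL6, at 8.22 and 6.49.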

How the data were processed

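Total RNA of 6 libraries, 3 control and 3 LPS, was measured by RNA-seq. The authors deposited FPKM values per gene and per transcript, and the submitters' processing notes name HISAT2 and StringTie without versions or settings. Those notes name build mm9, while the table carries human genes at GRCh38 coordinates equal to GENCODE 29. Of 5 deposited tables, 2 were used, those of annotated genes and transcripts. The sources do not give RNA selection, strand use or filters, and depth is unknown. FPKM of very short RNAs depends on how fragments near the RNA's own length were counted, and exon overlaps with hosts may split reads.

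Genes with a mean of at least 0.5 FPKM (15944) were tested with limma 3.58.1 in R 4.3.3 on log2(FPKM + 0.5), with group as the only factor, a mean-variance trend, a two-sided test and Benjamini-Hochberg adjustment. The script was checked on simulated data. Members and lists were chosen with earlier results of these data known. Named genes were the members past the threshold, those of at least 1 FPKM without overlap between groups, the 6 most abundant, all SCARNA genes, the lowest 3 and the 3 just under the level, 8 proteins, and hosts. Other members were named as examples, after their values were seen. 18 alternatives covered the pseudocount, filter, scaling, model, replicate block, each library left out and 1 identifier per symbol, which reuses the main fit.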

Additional observations from a re-analysis of the deposited data

How the results depend on the processing

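Under all 18 alternatives, 0 of the 39 to 54 members held and, where a value was obtained, 0 of the 27 tested protein genes were called. Keeping 1 identifier per symbol was no new fit. It only dropped members from the main fit, so its 0 calls were fixed in advance. The fit on genes of at most 300 bases held no protein gene. No value for protein genes was obtained in it or with 1 identifier per symbol. Members at an unadjusted p under 0.05 ranged from 0 to 8. Besides the fits without a library given above, their share was over that of all genes with library weights (11.1% against 9.72%) and with the replicate block (12.96% against 10.9%). The median log2 change stayed negative, from -0.31 to -0.20 over settings that kept all libraries. Leaving out 1 library each gave -0.30 to -0.13, the smallest without LPS 2 (-0.13) and without control 3 (-0.15). In these fits the genes were still those chosen with all 6 libraries, and the level was not applied anew. Positive genes numbered 13 to 18 in fits that held all 54, 12 of 50 with only short genes, 11 of 51 with 1 identifier per symbol and 10 of 39 at a minimum of 1 FPKM. Over the 6 genes SNORA64, SNORA65, SNORA70, SNORA78, SNORA59A and SNORA17B, all 104 alternative values kept their side of the threshold (limma, adjusted p of at least 0.27). All 104 also kept their direction, which says little, and those with 1 identifier per symbol are the main values again. In all of these genes but SNORA59A the groups did not overlap. Leaving out a library or changing the pseudocount could therefore not reverse their direction. SNORA70, which passed the level through control 2 only, kept its sign at only -0.025 without that library. Depth is unknown, which limits every gene near 0.5 FPKM.

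Same-numbered control and LPS libraries had deviation correlations of 0.026, 0.12 and 0.093, so the numbers were not taken to pair them, although each library correlated best with its own number, a hint from the data and not the design. With a replicate block 0 members were called, the median was -0.25, 13 genes were positive and 7 members had an unadjusted p under 0.05, while calls over all genes went from 8 to 0 (1736 at an unadjusted p under 0.05). Without a filter on low values 0 genes of all kinds were called by limma (2196 at an unadjusted p under 0.05), and with only genes of at most 300 bases 1 was. Against 8 calls over all genes, there were 5 with a pseudocount of 1 or quantile normalization and 2 without the trend. There were 4 without LPS 1, 1 without LPS 2, 3 without LPS 3, 3 without control 2, and 6 without control 1 or control 3.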
